A study of Mus musculus with 46 samples.

Results

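The anti-LMO2 peaks of transgenic splenic CD8 cells were the subject here, and they are every row of the peak list deposited for the 1 anti-LMO2 chromatin immunoprecipitation (ChIP) library of those cells. The list holds 20265 peaks, 80.2% of the 25269 peaks deposited in 5 lists. The members were therefore chosen by the peak call itself, so their heights and number are given as a description, with no test. The study compared T cells of wild-type mice with T cells of mice that carry LMO2 under human CD2 control elements (genotype label hCD2-LMO2 knock-in), all of strain C57BL/6, with no sex or age in the labels. The other 4 lists come from transgenic splenic CD4 cells, transgenic DN3 thymocytes (an early stage with neither CD4 nor CD8), transgenic DP thymocytes (with both) and wild-type DN3 thymocytes, and hold 816, 2239, 1225 and 724 peaks. Each list is 1 library with no replicate, wild-type splenic cells are not among them, and the labels do not name the control behind the peak calls. The labels list 1 input library, from transgenic thymocytes and not from spleen, which was not analysed here. The peaks in both lists labelled DN3 carry names that read DN2_3, so those cells may include the stage before, and they are called DN3 here as labelled. The RNA of the same 5 cell types was read in 3 libraries each.

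LMO2 is a LIM domain protein that does not bind DNA itself. It bridges DNA-bound bHLH dimers (Tal1 or Lyl1 with an E protein such as Tcf3 or Tcf12) and GATA factors to the cofactor Ldb1, and in blood stem cells and red cell precursors this complex sits at composite E-box and GATA sites. The gene is normally shut down early in thymic development, and its forced expression in T cells is a known cause of T-cell leukaemia. An anti-LMO2 peak is a stretch where fragments recovered with the antibody pile up above a local background. Whether LMO2 is present at a given peak, and which partner would hold it there, was not tested.

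The splenic CD8 list was long, and its peaks were low. It held 9.05 times as many peaks as the transgenic DN3 list and 28 times as many as the wild-type DN3 list. Its peaks covered 1201 kb, against 51 kb for splenic CD4, 140.1 kb for transgenic DN3, 73.2 kb for DP and 41.3 kb for wild-type DN3. Peak widths ran from 50 to 276 bases with a median of 50, and 13692 peaks (67.6%) were at that smallest width. The deposited fold, the summit pileup over the peak caller's background with 1 added to each, ran from 1.26 to 6.36 with a median of 3.47. The deposited -log10 p, the caller's own score of a summit against its background, ran from 2 to 20.4 with a median of 4.02. All folds and scores of peaks are the authors' values.

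Very few distinct heights made up most of the list. Among 20265 splenic CD8 peaks there were 512 distinct pairs of fold and -log10 p, and the commonest 3 pairs accounted for 15862 peaks (78.3%). The commonest pair, a fold of 3.47 with a -log10 p of 4.02, was shared by 7866 peaks. The next was a fold of 2.78 with a -log10 p of 2.96, found at 4854 peaks, and then a fold of 4.17 with a -log10 p of 5.16, found at 3142 peaks. In the other 4 lists the commonest 3 pairs covered 62.6% to 66.6% of the peaks.

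These repeated values correspond to small whole numbers of reads. MACS2, the only peak caller in the submitters' processing notes, computes fold and p from the pileup and a Poisson background, so both can be solved for the reads stacked at the summit and for the background reads at the same place. Under that formula every peak of all 5 lists matched a whole number of summit reads within 0.01 reads. Other scale factors matched a median of 1.38% to 3.89% of peaks. For 1033 splenic CD8 peaks more than 1 whole number fitted, and the values below use 1 of them. The commonest 3 pairs are summits of 4, 3 and 5 reads on a background of 0.44 reads, the value that 16192 splenic CD8 peaks (79.9%) share and that stands for the genome-wide mean.

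By this count 5424 splenic CD8 peaks (26.8%) had a summit of 3 reads, 9636 (47.5%) had 4 and 4159 (20.5%) had 5. A further 631 peaks (3.11%) had 6 reads and 141 (0.696%) had 7. Only 274 peaks (1.35%) reached 8 or more, and the highest pileup was 100 reads. The median summit was 4 reads in splenic CD8 and 5 reads in each of the other 4 lists, none of which held a peak of 3 reads. The share of peaks with 8 or more reads was 10.9% to 14.3% in those lists.

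The height needed to enter the list differed between the libraries. A summit of 3 reads on the genome-wide background has a -log10 p of 2.96 in the splenic CD8 list and would have 1.82 to 1.84 in the other 4, below their lowest listed values of 2.01 to 2.08. A summit of 4 reads has a -log10 p of 4.02 in splenic CD8 and 2.72 to 2.75 elsewhere. Just outside the splenic CD8 list, a summit of 2 reads on that background would have a -log10 p of 1.99. Just inside it, the lowest peak (chr9:3000930-3001025, mm9) had 100 reads over a background of 79.1 and a -log10 p of 2, and the third lowest (chr5:26445195-26445253) had 3 reads over 0.817. The recovered scaling moves with this difference. Pileups of splenic CD8 are whole and unscaled, whereas those of the other lists are multiplied by 0.8604 to 0.9964 and their fractions dropped in computing p. Read by the caller's scaling rule, the splenic CD8 library had 0.879 times as many reads as the control, and 75.6% to 87.6% of the reads of the other 4 libraries. These inferred values assume that all lists were called against the same control, which the labels do not state. How much of the list's length comes with these settings was not tested.

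**Figure D1:**
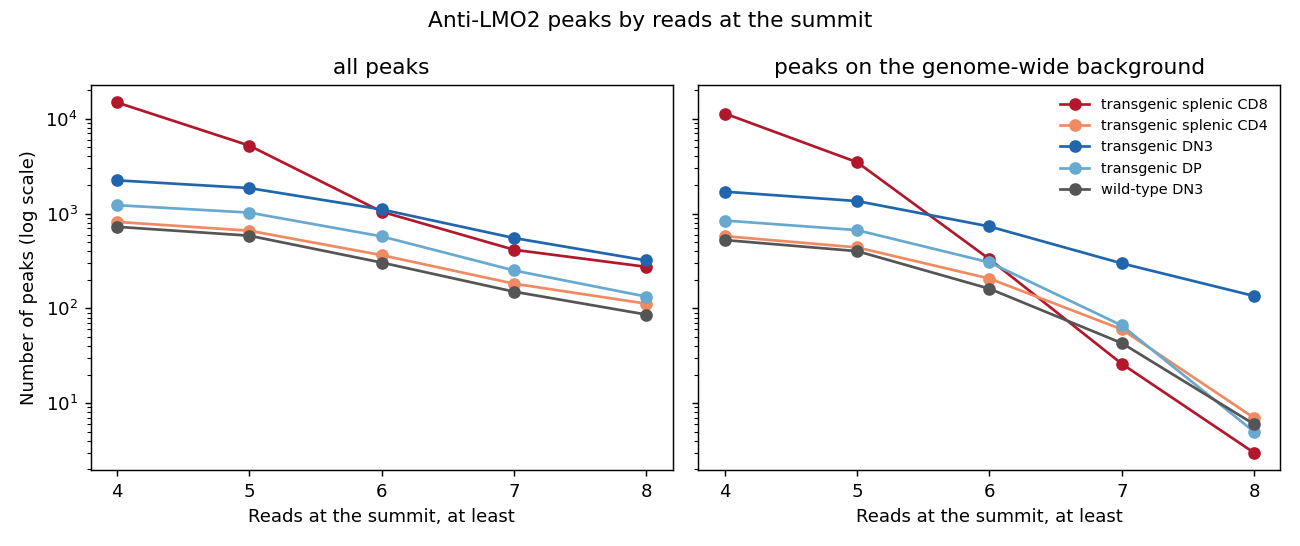
Number of peaks (vertical axis, log scale) with at least 4 to 8 reads at the summit (horizontal axis) in each of the 5 lists, for all peaks (left) and for peaks on the genome-wide background only (right). Splenic CD8 leads at 4 and 5 reads, with 14841 and 5205 peaks in the left panel, and on the genome-wide background it is the lowest of the 5 lists at 7 and 8 reads, with 26 and 3 peaks.

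At matched heights the excess of splenic CD8 peaks shrank up to 7 reads. With at least 4 reads there were 14841 splenic CD8 peaks, 6.63 to 20.5 times as many as in the other lists. With at least 5 reads there were 5205, 2.81 to 8.91 times as many. With at least 6 reads there were 1046, against 1104 in transgenic DN3 and 304 to 574 in the other 3 lists. On the genome-wide background alone, 26 splenic CD8 peaks had at least 7 reads, against 298 in transgenic DN3, 66 in DP, 60 in splenic CD4 and 43 in wild-type DN3. At 8 reads or more on that background the counts were 3 for splenic CD8, 7 for splenic CD4, 5 for DP, 6 for wild-type DN3 and 135 for transgenic DN3. Over all backgrounds only transgenic DN3 passed splenic CD8, with 552 peaks of at least 7 reads against 415, and the other 3 lists had 150 to 251. That order turned again at tall pileups, with 183 splenic CD8 peaks of at least 10 reads against 150 in transgenic DN3, and 80 of at least 20 reads against 34. The plot of peak number by summit reads shows where the lines cross. At matched -log10 p the excess had not shrunk at 5, where splenic CD8 had 3692 peaks, 9.59 to 48.6 times as many as the other lists. At 6 or more it had 440 peaks, 3.7 to 21 times as many. At 7 or more it had 62, against 109 in transgenic DN3 and 11 to 15 in the other 3 lists. On the genome-wide background a summit of equal height has a higher -log10 p in splenic CD8, as given above.

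Few splenic CD8 peaks passed a false discovery threshold. The deposited -log10 q was 0 for 19793 splenic CD8 peaks (97.7%), and 26 peaks (0.128%) had a -log10 q of at least 1.3, a q of about 0.05. That number was 75 in transgenic DN3 (3.35% of its list), 8 in splenic CD4, 5 in wild-type DN3 and 1 in DP. The 26 splenic CD8 peaks had 8 to 59 summit reads with a median of 18. Of these 26 peaks, 17 lay on a background of at least 1 read, 10 on a background of at least 5 reads and 4 on unplaced contigs. They fell on 13 chromosomes or contigs, and 6 of them lay on chromosome 5.

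The peak with the highest score was at chr8:107728766-107728838. It had 38 reads at the summit over a background of 5.27, a fold of 6.22 and a -log10 p of 20.4, and it was in no other list. A group of 4 peaks within 12 kb of chromosome 5 took ranks 2, 3, 4 and 8. The peak at chr5:23315617-23315690 had 56 reads over a background of 12.3 (-log10 p 19.7), and chr5:23311228-23311291 had 59 reads over 15.8 (-log10 p 16.7). The peak at chr5:23322852-23322966 had 40 reads over 7.91 (-log10 p 16), and chr5:23316713-23316767 had 20 reads over 3.52 (-log10 p 9.69). Of these 4 chromosome 5 peaks, the one ending at 23322966 was also in the wild-type DN3 list and the other 3 were in no other list. The backgrounds at these 5 peaks, 3.52 to 15.8 reads, were all above the genome-wide 0.44. Gene annotation of mm9, the build taken from the chromosome names and from the peak names of the transgenic DN3 list, was not used here, so no peak is placed in or near a gene, and no sequence is shown.

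Other high peaks fell into those with a raised background and those without. The peak at chr3:59849125-59849175 had 37 reads over 8.79 (-log10 p 12.6), and chr7:67007542-67007594 had 22 over 3.74 (-log10 p 10.8) and was shared with DP. A peak on chromosome 18 had 18 reads over 2.68 (-log10 p 10.1) and was shared with both DN3 lists. By contrast, 3 peaks had 8 reads on the genome-wide background of 0.44, each with a fold of 6.25 and a -log10 p of 8.94. They lie at chr15:102301041-102301097, chr6:113113401-113113469 and chr5:114623118-114623254, and the last of them was also in the splenic CD4 and transgenic DN3 lists. Among the 20 peaks with the highest -log10 p, 12 had a background of at least 1 read, 1 was on an unplaced contig and 6 were in another list. The backgrounds of those 20 peaks ran from 0.44 to 23.7 reads.

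**Figure D2:**
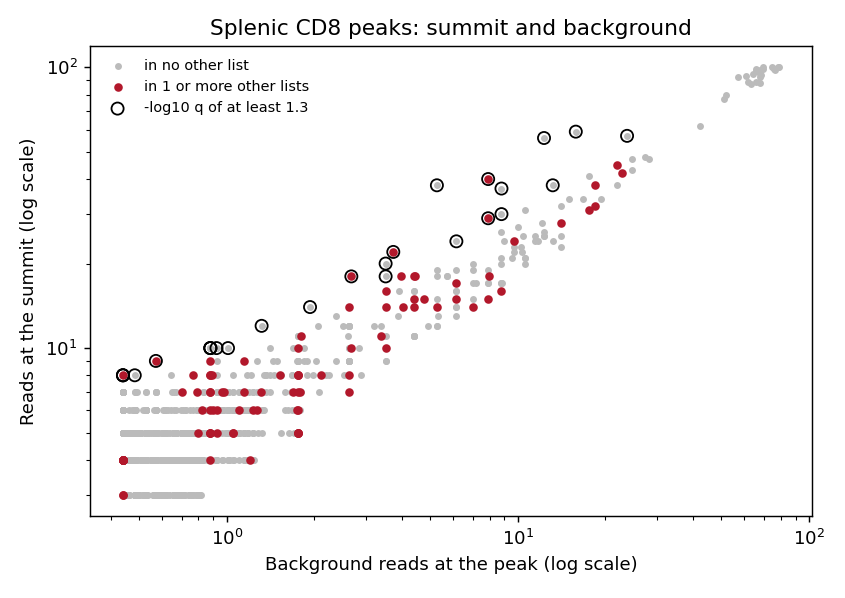
Reads at the summit (vertical axis) against background reads (horizontal axis), both on log scales, for the 20265 splenic CD8 peaks, 1 point per peak. Red points are the 92 peaks found in at least 1 other list, and black circles mark the 26 peaks with a -log10 q of at least 1.3, 17 of which have a background of at least 1 read.

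Background divided the list into unequal classes. Beside the 16192 peaks on the genome-wide value, 3568 peaks (17.6%) had a raised background under 1 read, 394 (1.94%) had 1 to 5 reads and 111 (0.548%) had 5 or more. The last class had a median of 25 summit reads, a median fold of 2 and a median width of 73 bases, against 4 reads, a fold of 3.47 and 50 bases on the genome-wide background. Of the 274 splenic CD8 peaks with 8 or more reads, 16.1% were on unplaced contigs, against 0.461% of peaks with 3 reads. The list held 215 peaks (1.06%) on such contigs in all, and 1 on the mitochondrial chromosome. Widths grew little with height, from a median of 50 bases at 3 to 5 reads to 63 bases at 8 or more.

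Hardly any splenic CD8 peak overlapped a listed peak of another cell type. Absence from another list is not absence of signal in those cells, since the height needed to enter a list differed between the libraries. With an overlap of at least 1 base counted as shared, 92 splenic CD8 peaks (0.454%, exact 95% binomial interval 0.366% to 0.556%) were in at least 1 other list, and 20173 were in none. Of those 92 peaks, 74 were in 1 other list, 13 in 2 and 5 in 3, and no peak was in all 5 lists. Intervals cover counting error only.

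The overlap was small from the side of the shorter lists as well. Splenic CD4, the other splenic T cell, shared 10 peaks with splenic CD8, which is 0.0493% of the splenic CD8 list and 1.23% of the splenic CD4 list (0.589% to 2.24%). Transgenic DN3 shared 30 splenic CD8 peaks (0.148%), which met 29 peaks of its own (1.3%, 0.869% to 1.85%). DP shared 46 peaks, 0.227% of splenic CD8 and 3.76% of DP (2.76% to 4.98%). Wild-type DN3, which carries no transgene, shared 29 peaks, 0.143% of splenic CD8 and 4.01% of its own list (2.7% to 5.7%). The largest share of another list met by splenic CD8 peaks was thus that of the wild-type cells, and its interval overlaps that of DP. The other 4 lists shared little with each other too, between 0.653% and 3.04% of a list in any pair.

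Sharing was concentrated in the tallest splenic CD8 peaks. It was 0.0369% (2 of 5424 peaks) at 3 reads, 0.114% at 4 and 0.264% at 5. It was 1.43% (0.654% to 2.69%) at 6 reads, 8.51% (4.48% to 14.4%) at 7 and 17.2% (12.9% to 22.1%) at 8 or more, which is 47 of 274 peaks. The shared peaks also had more background. Their median was 8 summit reads over 1.75 background reads, against 4 over 0.44 for peaks in no other list. A background of at least 1 read was found at 58 of the 92 shared peaks (63%) and at 447 of the 20173 others (2.22%). Unplaced contigs held 10.9% of the shared peaks and 1.02% of the others. The part of background in the sharing was not tested.

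**Figure D3:**
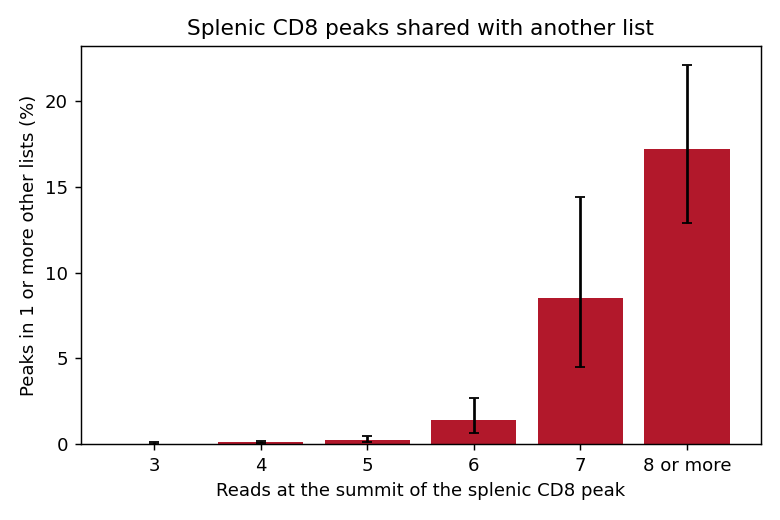
Share of splenic CD8 peaks found in at least 1 other list (vertical axis, percent) by reads at the summit (horizontal axis), with exact 95% binomial intervals that cover counting error only. The share is 0.0369% at 3 reads and 17.2% at 8 or more.

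The 5 peaks found in 4 of the 5 lists were of different kinds. The peak at chr11:34444339-34444392 had 7 reads over a background of 0.791, a fold of 4.47 and a -log10 p of 5.72. It was shared with splenic CD4 and both DN3 lists. The peak at chr17:4626229-4626374 had 4 reads on the genome-wide background (fold 3.47) and was shared with the same 3 lists. The peak at chr17:13498847-13498957 had 45 reads over a background of 22 (fold 2) and was shared with both DN3 lists and DP. The other two lie on an unplaced contig, with 6 reads, and on chromosome 18, with 28 reads over a background of 14.1.

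Peaks common to both splenic cell types and absent from all thymocyte lists numbered 3. A peak on chromosome 18 had 4 reads on the genome-wide background. The peaks at chr6:47620741-47620790, with 8 reads over 2.11, and chr6:47612565-47612636, with 6 reads over 1.76, lie in 1 stretch of chromosome 6. That stretch, chr6:47600001-47700000, was the 100 kb window with the most splenic CD4 peaks, 50 in all. It also held 14 peaks of transgenic DN3, 12 of wild-type DN3, 5 of splenic CD8 and 1 of DP.

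Summits near each other, overlapping peaks included, were few at short distances. Of the splenic CD8 summits, 12 (0.0592%) lay within 200 bases of a splenic CD4 summit and 32 (0.158%) within 1000 bases. From the other side, 40 splenic CD4 summits (4.9%) had a splenic CD8 summit within 1000 bases, as did 3.26% of transgenic DN3, 8.41% of DP and 7.32% of wild-type DN3 summits. Within 10000 bases it was 189 splenic CD4 summits (23.2%). These shares are set beside the spacing of the splenic CD8 peaks themselves, whose median gap was 79.2 kb. Within 100000 bases, 76.3% of splenic CD4 summits had a splenic CD8 summit.

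Splenic CD8 peaks were spread rather evenly over the chromosomes. Their density ran from 6.82 peaks per Mb on chromosome 10 to 9.55 on chromosome 4, a ratio of 1.4 between the extremes among autosomes, with a median of 7.62. The same ratio was 2.2 in DP, 2.54 in wild-type DN3, 5.05 in transgenic DN3 (highest on chromosome 15) and 5.11 in splenic CD4 (highest on chromosome 6). With fewer peaks the density of a chromosome varies more by counting alone, so the ratios of the short lists are less exact. The X chromosome had 4.64 splenic CD8 peaks per Mb and was below every autosome. It was below every autosome in the other 4 lists as well.

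**Figure D4:**
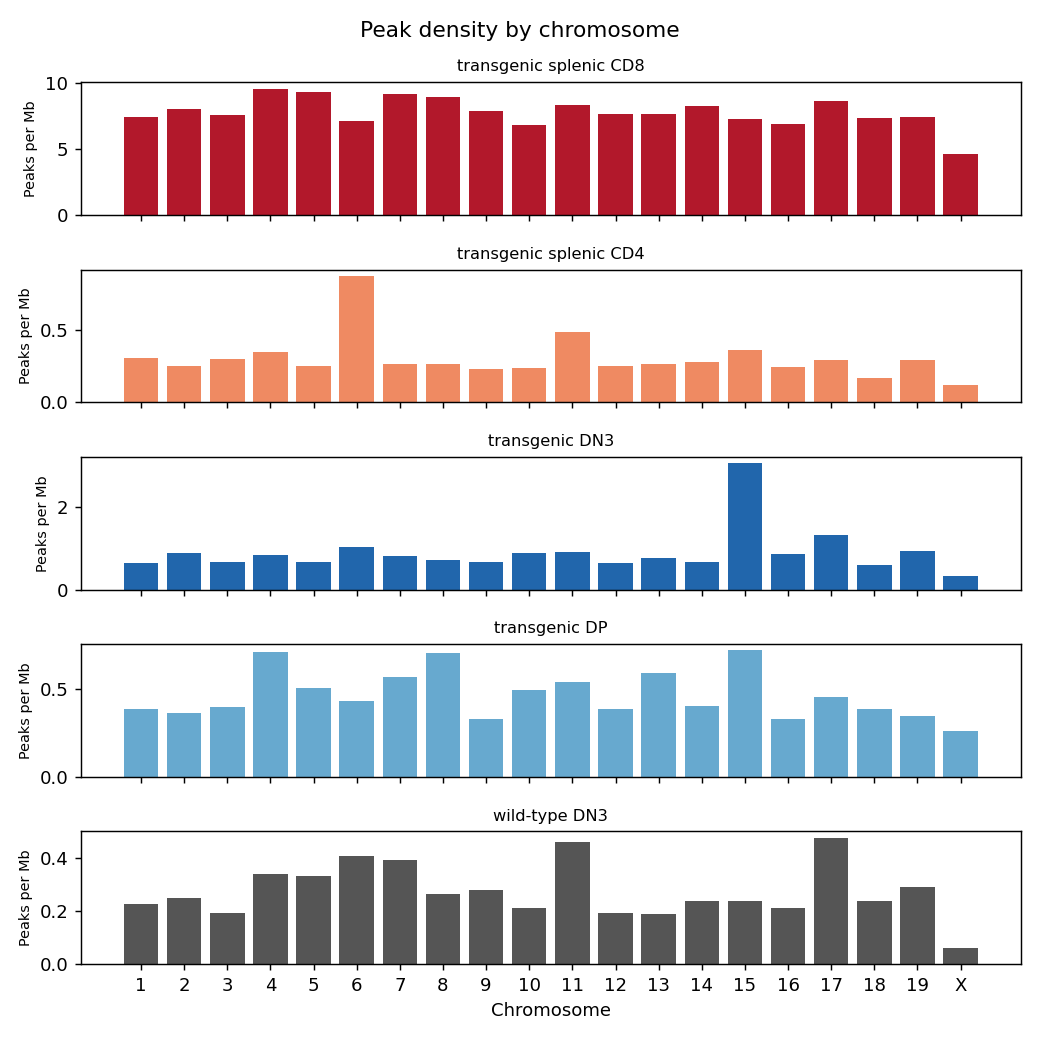
Peaks per Mb (vertical axis, its own scale in each panel, from 0) on chromosomes 1 to 19 and X (horizontal axis) in the 5 lists, with Mb taken as the stretch spanned by peaks. The splenic CD8 bars of the autosomes lie between 6.82 and 9.55, while chromosome 6 stands out in splenic CD4 and chromosome 15 in transgenic DN3.

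A few windows held many splenic CD8 peaks. Of 13101 windows of 100 kb with a splenic CD8 peak, 8388 held 1 and 162 held 5 or more. The fullest was chr11:3000001-3100000, with 24 peaks whose medians were 21.5 summit reads and 9.67 background reads. It also held 5 peaks of wild-type DN3, 3 of DP, 1 of splenic CD4 and none of transgenic DN3. Next was chr7:67000001-67100000, with 23 splenic CD8 peaks, a median of 10 reads over 2.64, and 1 to 6 peaks in each other list. The window chr5:14900001-15000000 held 17 splenic CD8 peaks and chr7:46500001-46600000 held 16, with medians of 5 reads over 1.03 and 0.879.

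The window chr9:3000001-3100000 held another 17 splenic CD8 peaks and no peak of the other 4 lists. Its summits had a median of 93 reads over a median background of 67.7, and the highest -log10 p there was 4.36. The peak with the lowest -log10 p of the list, with 100 reads over a background of 79.1 and a fold of 1.26, lies in this window. The window chrX:166400001-166500000 was dense in every list, with 23 peaks in DP, 17 in transgenic DN3, 11 in splenic CD4, 6 in splenic CD8 and 4 in wild-type DN3. These windows were picked for their counts, so the counts are a description.

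The transcript of the precipitated protein was present in the RNA of splenic CD8 cells. Levels in CPM are reads scaled to the library's total of counted reads, with that total adjusted by edgeR's TMM factor for library composition. Lmo2 levels were 88, 50.3 and 40.3 CPM in the 3 libraries of splenic CD8 cells. They were 52.2, 39.4 and 82.6 in splenic CD4, 25.8, 20.1 and 19.3 in transgenic DN3, and 74.9, 67.8 and 0.387 in DP. In wild-type DN3 they were 0.289, 0.219 and 0.211. Splenic CD8 and splenic CD4 overlapped in Lmo2, both were above transgenic DN3, and 1 DP library stood at the wild-type level. The order of Lmo2 in the RNA was not the order of the peak numbers, with splenic CD4 at 816 peaks and splenic CD8 at 20265. The height needed to enter a list also differed between the libraries. The part of the Lmo2 level in the length of the lists was not tested. The RNA and ChIP libraries are not said to come from the same animals.

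The sort was checked in the RNA before the comparison. Cd8a, a chain of the CD8 coreceptor, was 420.0, 1474 and 1467 CPM in splenic CD8 libraries 1 to 3, against 4.61 to 47 in splenic CD4. Cd4 was 53, 3.35 and 4.1 CPM in splenic CD8, against 916 to 1564 in splenic CD4. The 6 markers of the CD8 T list, which include Cd3d, Cd3e and Cd3g of all T cells, summed to 1170.4, 4958 and 5229 CPM in splenic CD8 and to 1326 to 1700.0 in splenic CD4, so splenic CD8 replicate 1 was below every splenic CD4 library. None of the 6 passed the test between the cell types described next, and their median log2 fold change was 0.17. Splenic CD8 replicate 1 stands apart, with less Cd8a and more Cd4 than the other two. The 5 B cell markers summed to 3381 CPM in that library and to 702 and 464 in the others, and the 6 myeloid markers to 2846, 111 and 146. Splenic CD4 replicate 3 stands apart as well, with 916 CPM of Cd4 against 1563 and 1564. Its B cell sum was 1744 against 873 and 423, its myeloid sum 2917 against 589 and 438, and its sum of 5 erythroid markers 32318 against 1568 and 720.3. The highest splenic CD4 values of Lmo2, Lyl1, Tal1, Tcf3, Gata1, Gata2 and Erg given here are also those of replicate 3. For Lmo2, Lyl1, Tal1, Gata1, Gata2, Erg, Cbfa2t3 and Runx1, the highest splenic CD8 values are those of splenic CD8 replicate 1. That library has the lowest splenic CD8 values of Ldb1, Ssbp3, Tcf12, Gata3 and Fli1. Of the 16 B cell, myeloid and erythroid markers, Hbb-b1, a globin, was the 1 at 0 in all splenic CD8 libraries. Which of these cells went into the ChIP library is not known, and their part in the peaks was not tested.

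Between splenic CD8 and splenic CD4 RNA, 61 of 12429 genes (0.491%) passed edgeR's quasi-likelihood test at an adjusted p of 0.05, 13 higher and 48 lower in splenic CD8. None of the 19 tested genes of the LMO2 complex list was among them. That list holds LMO2, its partners, factors bound beside it and the Id inhibitors of E proteins. DESeq2 called 808 genes, and edgeR without splenic CD8 replicate 1 called 1289. Leaving out splenic CD8 replicate 2 or 3 left 1 and 0 genes, and leaving out splenic CD4 replicate 1, 2 or 3 left 0, 5 and 25, so the count depends on single libraries. Lmo2 itself differed by a log2 fold change of -0.01 ± 0.39 (SE; adjusted p = 0.994 in edgeR), with 3 libraries each, and its values in both groups overlapped. The median log2 fold change of the complex list was -0.29, beside 0.01 over all genes tested.

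Bridge and cofactor transcripts were present in both splenic cell types. Ldb1, the self-associating cofactor that LMO2 binds, was 206, 336 and 337 CPM in splenic CD8 and 359, 362 and 331 in splenic CD4. Its log2 fold change did not pass the test, and the lowest value was again splenic CD8 replicate 1. Ssbp3, which protects Ldb1 from degradation, was 45.3, 87.8 and 101 CPM in splenic CD8 and 161, 154 and 95.1 in splenic CD4 (-0.84 ± 0.35, adjusted p = 0.315 in edgeR). Cbfa2t3, a corepressor found in the complex, was 162, 47.6 and 46.2 CPM in splenic CD8 and 108, 95.7 and 92.8 in splenic CD4.

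The DNA-binding partners differed widely in level. Lyl1, the bHLH partner that can stand in for Tal1, was 88.8, 15.6 and 10 CPM in splenic CD8 and 24.6, 16.2 and 53.7 in splenic CD4. The high splenic CD8 value is replicate 1, so the groups overlap. Tal1 was 0.927, 0.31 and 0.154 CPM in splenic CD8 and 1.02, 0.405 and 4.23 in splenic CD4. Tal2, a relative of Tal1, had 1 read in 1 splenic CD8 library and none in the other libraries of either splenic cell type. The E protein Tcf3 was 169, 168 and 180.3 CPM in splenic CD8 and 145, 145 and 205 in splenic CD4. The E protein Tcf12 was 122, 206 and 225 CPM in splenic CD8 and 124, 127 and 77 in splenic CD4 (0.72 ± 0.30, adjusted p = 0.319 in edgeR), and its groups overlap by 1 library.

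**Figure D5:**
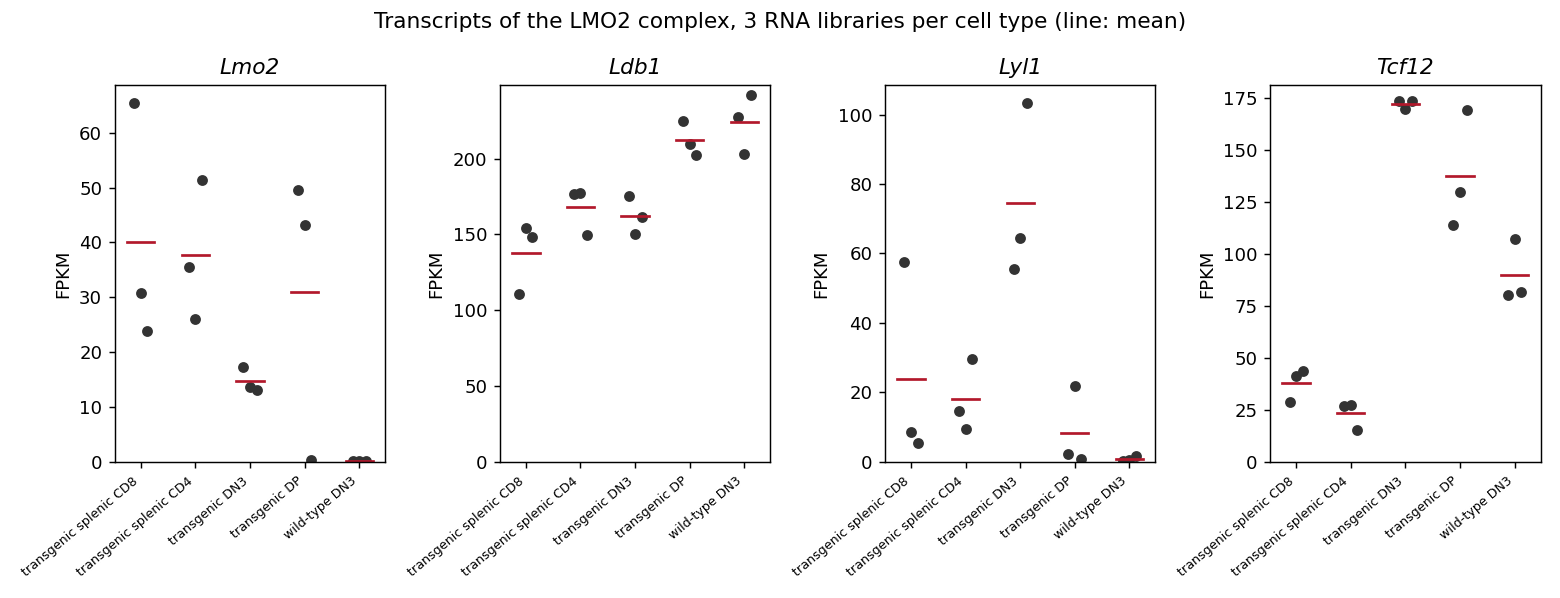
Deposited FPKM (vertical axis, linear, from 0, own scale per panel) of Lmo2, Ldb1, Lyl1 and Tcf12 in the 3 RNA libraries of each of the 5 cell types with a peak list; points are libraries and red lines their means. Lmo2 is above the wild-type DN3 libraries in all splenic CD8 libraries, and 1 of the 3 DP libraries lies at the wild-type level.

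GATA factors were led by Gata3, the member used in T cells. Gata3 was 11, 75.7 and 83.3 CPM in splenic CD8 and 129, 124 and 41.3 in splenic CD4, with splenic CD8 replicate 1 lowest. Gata1, the factor of red cells and megakaryocytes, was 0.927, 0.496 and 0.462 CPM in splenic CD8 and 5.17, 3.54 and 7.69 in splenic CD4. The groups did not overlap, but the difference did not pass the test (-3.14 ± 0.53, adjusted p = 0.0688 in edgeR). Erythroid markers summed to 106 to 468 CPM in splenic CD8 and 720.3 to 32318 in splenic CD4, and their part in Gata1 was not tested. Gata2 was 0.806, 0.496 and 0.41 CPM in splenic CD8 and 1.16, 0.556 and 10.1 in splenic CD4.

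Of the factors often bound beside the complex, Runx1 and Fli1 were read in every splenic library, while Erg had few reads in most of them. Runx1 was 80.5, 64.3 and 56 CPM in splenic CD8 and 134, 118 and 63.7 in splenic CD4 (-0.68 ± 0.29, adjusted p = 0.337 in edgeR). Fli1, an ETS factor, was 136, 155 and 154 CPM in splenic CD8 and 136, 127 and 77.4 in splenic CD4. Erg, another ETS factor, was at most 0.484 CPM in splenic CD8 and reached 5.57 in 1 splenic CD4 library. An adjusted p above the threshold does not show that any of these genes is alike in the 2 cell types.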

How the data were processed

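Peaks are rows of the deposited narrowPeak lists, which have no header. Per the submitters' processing notes HISAT, DESeq2, Bowtie2 and MACS2 were used with the builds mm10 and mm9, with no step or version given. The deposited fold of a peak is a ratio of pileup to background, each with 1 added. The deposited -log10 p and -log10 q are the caller's, and the deposited score is 10 times the -log10 p. Each list belongs to 1 labelled sample, and whether animals or stages were pooled is not stated. Summit and background reads were solved from fold and p under the caller's published Poisson formula, with a scale factor searched in steps of 0.0002 per list. Overlaps needed 1 shared base.

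RNA values are the authors' deposited read counts for 19521 genes, with totals of 17211426 to 28842773 over 40 libraries. The authors' deposited FPKM values were used for 1 plot. The table holds 4 further sample columns that were not used. Splenic CD8 and CD4 counts were compared with edgeR 4.0.16 in R 4.3.3 (TMM, filterByExpr with a minimum count of 10 and total of 15, robust quasi-likelihood test, two-sided, Benjamini-Hochberg, threshold 0.05, prior count 0.125), 3 libraries against 3. DESeq2 1.42.0 was an alternative. On simulated counts of 12269 genes for this comparison, 42 of 67 genes changed 4-fold and 61 of 66 changed 16-fold were called. So were 63 of 66 changed 64-fold, with 6 false calls. In the measured counts Cd8a (log2 fold change 5.80, adjusted p = 0.0979 in edgeR), Cd8b1 (4.86, 0.069) and Cd4 (-6.09, 0.107) were not called. Foxp3 (-6.25, 0.0062) and Cd40lg (-6.23, 0.0346) were called. Whether the simulated shares hold for the measured libraries was not tested. Whether replicates are separate animals is not stated. The p-values therefore weigh each difference against the spread between these libraries, which may not be that between animals. Intervals are exact Clopper-Pearson 95% intervals.

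Peaks were named by rule: the 20 with the highest -log10 p, the 10 with the highest fold, the peaks in most lists, those shared with splenic CD4 only, the widest and the lowest. The windows of 100 kb were chosen after their counts were seen. The members, gene lists and rules were chosen with earlier results of these data known. Alternatives were stricter thresholds on p, q and summit reads, other overlap rules, other scaling, no filter, a replicate block and leaving out each library.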

Additional observations from a re-analysis of the deposited data

How the results depend on the processing

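With 1 library per cell type the peak comparisons have no replicate check. The splenic CD8 list held 3692 peaks covering 211 kb at a -log10 p of at least 5, 26 peaks covering 1.92 kb at a -log10 q of at least 1.3 and, in an alternative added after seeing the data, 5205 peaks covering 310.1 kb at 5 or more summit reads. At a -log10 p of at least 3 they covered 798 kb. Of 56 overlap shares under alternatives, 46 stayed within the counting interval of the share reported and 10 did not. The alternatives reuse the same peaks and the intervals are wide, so a share inside its interval is not shown to be stable. For splenic CD4 peaks that meet splenic CD8, the interval was 0.589% to 2.24% around 1.23%. With a -log10 p of at least 5 in both lists, 0.108% of splenic CD8 peaks met splenic CD4 and 0.135% met DP, while 4.26% of splenic CD4 and 6.58% of wild-type DN3 peaks met splenic CD8. With 5 or more summit reads in both lists (added after seeing the data) the splenic CD8 shares were 0.134% for splenic CD4, 0.461% for transgenic DN3, 0.788% for DP and 0.519% for wild-type DN3. With a reciprocal overlap of 50%, DP shared 0.163% of splenic CD8 and 2.69% of its own peaks. Fewer peaks enter under each stricter threshold, and the cause of the moves was not tested. The planned shares of peaks at gene starts or with motifs were not run, since no mm9 annotation or sequence was used here.

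For the RNA comparison DESeq2 called 808 genes, and leaving out 1 library at a time gave 0 to 1289 calls. The Lmo2 log2 fold change was 0.00 in DESeq2, on the positive side, and ran from -0.38 to 0.35 with 1 library left out. It passed no test in any of these. Deviations of same-numbered splenic CD8 and CD4 libraries from their group means correlated at -0.14, 0.26 and -0.31. With 3 libraries per group these values cannot show whether a number stands for a shared animal or day, which the labels do not state. With the replicate number as a block, edgeR called 0 genes, 1579 at an unadjusted p under 0.05, against 61 called and 1957 without the block and 808 called by DESeq2. The cause of these differences was not tested.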
